A study of Homo sapiens with 6 samples.

Results

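The peaks described here are stretches of chromatin bound by SUMO-2/3-conjugated proteins in HL-60 cells after treatment with cytosine arabinoside (Ara-C) or daunorubicin (DNR). They were taken as every entry of the 2 treated peak lists, 72279 after Ara-C and 33355 after DNR, or 105634 of the 149899 peaks of the whole series. HL-60 is a line grown from a human acute myeloid leukaemia, and its cells received 2 µM Ara-C or 1 µM DNR for 2 h. SUMO-2/3 was immunoprecipitated with 2 µg of antibody, and material from 3 biological replicates was combined before sequencing (ChIP-seq). Each drug is thus represented by 1 library, and the same line without any drug was not used. No difference below has a replicate check, no test was made between the drugs, and the intervals in brackets are 95% intervals for counting error alone. The number of reads behind each list is unknown, so a difference in depth and a difference between drugs cannot be told apart. The comparison addressed where on the genome SUMO-2/3 lies after each of the drugs, and how far the sites are the same.

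SUMO proteins are small polypeptides that are attached to lysines of other proteins by a cascade of enzymes that begins with the E1 enzyme SAE1-UBA2, and are removed by SENP proteases. Many of their targets are transcription factors, co-regulators and other chromatin proteins, and promoters of housekeeping genes, tRNA genes and histone genes are known SUMO-rich sites. Ara-C is a nucleoside analogue that is built into DNA during replication. DNR is an anthracycline that intercalates into DNA, traps topoisomerase II and evicts histones. Both are given together in the treatment of acute myeloid leukaemia.

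The sequences of 6 start-site peaks show the kinds of site that the lists hold. They are the genes with the widest peaks within 2 kb upstream to 1 kb downstream of a coding transcription start site (TSS), a pair each for both drugs, Ara-C only and DNR only. Each line gives 150 bp from the centre of the peak, or for both drugs from the centre of the stretch that the Ara-C and DNR peaks share, on the plus strand of GRCh37, the assembly underlying hg19, with CG dinucleotides in capitals. The positions are, in the order printed, chr19:1383551-1383700, chr17:56407026-56407175, chr19:51298226-51298375, chr21:33984826-33984975, chr5:6447726-6447875 and chr1:2562101-2562250.
NDUFS7, both drugs: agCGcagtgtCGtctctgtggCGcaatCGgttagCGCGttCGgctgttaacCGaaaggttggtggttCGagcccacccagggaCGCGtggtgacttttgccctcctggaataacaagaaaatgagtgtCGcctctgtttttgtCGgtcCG
TSPOAP1, both drugs: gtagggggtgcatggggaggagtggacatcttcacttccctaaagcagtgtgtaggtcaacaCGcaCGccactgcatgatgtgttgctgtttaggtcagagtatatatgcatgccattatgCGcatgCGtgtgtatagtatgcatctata
SMIM47, Ara-C only: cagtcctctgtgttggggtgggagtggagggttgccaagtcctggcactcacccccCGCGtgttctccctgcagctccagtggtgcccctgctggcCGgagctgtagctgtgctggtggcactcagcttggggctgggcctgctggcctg
CFAP298, Ara-C only: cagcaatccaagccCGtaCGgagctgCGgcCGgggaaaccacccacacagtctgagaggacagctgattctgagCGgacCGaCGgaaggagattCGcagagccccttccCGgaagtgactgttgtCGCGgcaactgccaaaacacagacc
UBE2QL1, DNR only: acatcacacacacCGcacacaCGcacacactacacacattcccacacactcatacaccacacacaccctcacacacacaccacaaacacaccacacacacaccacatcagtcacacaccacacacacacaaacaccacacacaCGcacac
MMEL1, DNR only: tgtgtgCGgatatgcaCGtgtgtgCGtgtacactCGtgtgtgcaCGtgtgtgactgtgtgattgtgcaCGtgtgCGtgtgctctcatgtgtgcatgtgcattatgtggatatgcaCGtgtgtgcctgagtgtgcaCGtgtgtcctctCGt

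The NDUFS7 sequence had a GC content of 56.0% and 14 CG dinucleotides. It held 1 match to the B box, the internal promoter element of tRNA genes that is bound by TFIIIC. The CFAP298 sequence had 11 CG dinucleotides and a GC content of 60.7%. The number of CG dinucleotides did not follow the kind of site, with 4 at TSPOAP1, 3 at SMIM47, 3 at UBE2QL1 and 10 at MMEL1. The UBE2QL1 and MMEL1 sequences were runs of CA and TG. Shifted by 2 bp, 67.6% of the UBE2QL1 bases and 51.4% of the MMEL1 bases matched themselves, against at most 39.6% at any shift from 2 to 75 bp in the other 4 sequences.

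The Ara-C list was 2.17 times as long as the DNR list and covered 13.9 Mb against 6.21 Mb. Both lists were mostly narrow, with a median of 150 bp, the least that could be called. There were 1868 Ara-C peaks and 635 DNR peaks of 400 bp or more. The lists give no height, so width was the only way to rank peaks. Whether width follows the strength of a peak was not tested. To compare the lists at the same length, the 4213 widest peaks of each were taken, a number set by the DNR peaks of at least 250 bp. This cut kept all DNR peaks from 250 bp and Ara-C peaks of more than 300 bp, with a random 39.1% of the Ara-C peaks of exactly 300 bp. The equal-number Ara-C peaks were wider, with a mean of 399.8 bp against 312.6 bp, and some results are therefore also given by width class.

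Ara-C peaks lay at start sites more often than DNR peaks did, and the gap was wider among the widest peaks. The start-site window holds 2.72% of the genome. It held 6787 Ara-C peaks, or 9.39% (9.18 to 9.61), and 1624 DNR peaks, or 4.87% (4.64 to 5.11). The Ara-C share was 1.93 times the DNR share (1.83 to 2.03). Both lists thus had more peaks at start sites than an even spread would give, 3.45-fold for Ara-C and 1.79-fold for DNR. Among equal numbers of widest peaks, 25.2% (23.9 to 26.5) of the Ara-C list and 6.53% (5.82 to 7.31) of the DNR list were in the window, a ratio of 3.85 (3.40 to 4.37).

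Coding exons outside the window went the other way. They held 1.92% (1.82 to 2.02) of the peaks after Ara-C and 2.36% (2.20 to 2.52) after DNR, against 1.05% of the genome. In the equal-number lists the shares were 1.95% (1.57 to 2.41) and 2.37% (up to 2.88), and these intervals overlapped. UTRs held 1.82% and 1.78% of all peaks. Introns held 38.1% of the peaks after Ara-C and 39.5% after DNR, close to their 38.8% of the genome. Intergenic sequence held 34.3% and 35.8% against 39.9% of the genome, and non-coding genes held 14.4% and 15.7% against 16.2%. Among equal numbers of widest peaks, introns fell to 26.4% of Ara-C peaks but were still 33.9% of DNR peaks. Non-coding genes then held 19% of DNR peaks (17.8 to 20.2) and 14.3% of Ara-C peaks (13.3 to 15.4).

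**Figure D1:**
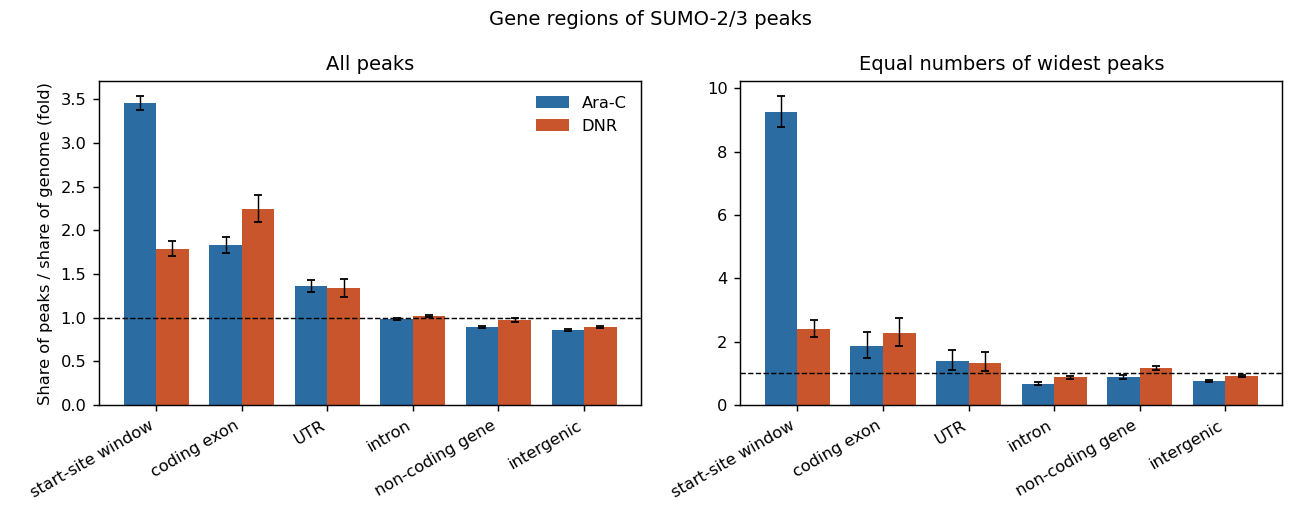
Share of SUMO-2/3 peaks in each gene region divided by the share of the genome (fold, linear axis; the 2 panels have their own scales), for Ara-C and DNR, with all peaks on the left and the 4213 widest peaks of each list on the right. Bars are single libraries, error bars are 95% Wilson intervals and the dashed line is an even spread. The start-site bar of Ara-C stands at 3.45 and 9.25, and that of DNR at 1.79 and 2.40.

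The share in the window rose with width in the Ara-C list and far less in the DNR list. After Ara-C it was 6.63% (6.39 to 6.89) at 150 bp, 8.88% at 200 bp and 15% at 250 bp. It was 20.7% for 300 to 350 bp and 29.9% (27.9 to 32) for at least 400 bp. After DNR the same classes gave 4.48% (4.19 to 4.78), 4.91%, 6.18%, 7.67% and 5.84% (4.26 to 7.94). The ratio between the drugs went from 1.48 (1.37 to 1.60) at 150 bp to 5.12 (3.72 to 7.05) at 400 bp or more. The interval of the widest DNR class overlapped that of the narrowest.

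The median distance of a peak from the nearest coding TSS was 42130 bp after Ara-C and 51883 bp after DNR. In the equal-number lists it was 17484 bp and 49790 bp. Within 250 bp of a TSS lay 2974 Ara-C peaks, or 4.11% (3.97 to 4.26), and 334 DNR peaks, or 1.00% (0.900 to 1.11), a ratio of 4.11 (3.67 to 4.60). Among the widest peaks the counts were 649 and 64, and the ratio was 10.1 (7.87 to 13.1). At 400 bp or more, 18.7% (17 to 20.5) of the Ara-C peaks and 1.10% (0.536 to 2.26) of the DNR peaks were that close.

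The profile around the TSS differed in shape as well as in height. Ara-C peak midpoints rose to a single summit in the 250 bp upstream of the TSS, at 9.35 times an even spread (8.94 to 9.79), and to 37.9 times (34.7 to 41.5) among the widest peaks. In the same bin DNR peaks stood at 1.94 times (1.67 to 2.25) and at 3.59 times (2.65 to 4.86) among the widest. The DNR profile was higher 1 bin further upstream, between 500 and 250 bp from the TSS, at 2.62 times (2.28 to 3.02), and its values over the first 1 kb downstream lay between 1.67 and 2.04. From 1 to 2 kb upstream, which is inside the window, the lists stood at 1.51 for Ara-C and 1.45 for DNR. From 2 to 5 kb upstream, which is outside it, they stood at 1.22 and 1.16. In both places the intervals of the lists overlapped, but among the widest peaks the values from 1 to 2 kb upstream were 2.52 (2.03 to 3.11) for Ara-C and 1.4 (1.05 to 1.86) for DNR. More than 100 kb downstream of the nearest TSS, the order was the opposite over all peaks, at 0.811 (0.799 to 0.823) for Ara-C and 0.925 (0.906 to 0.944) for DNR. Of the Ara-C peaks within 1 kb of a TSS, 57.0% (55.7 to 58.2) were upstream, and of the DNR peaks 52.3% (49.5 to 55.1).

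**Figure D2:**
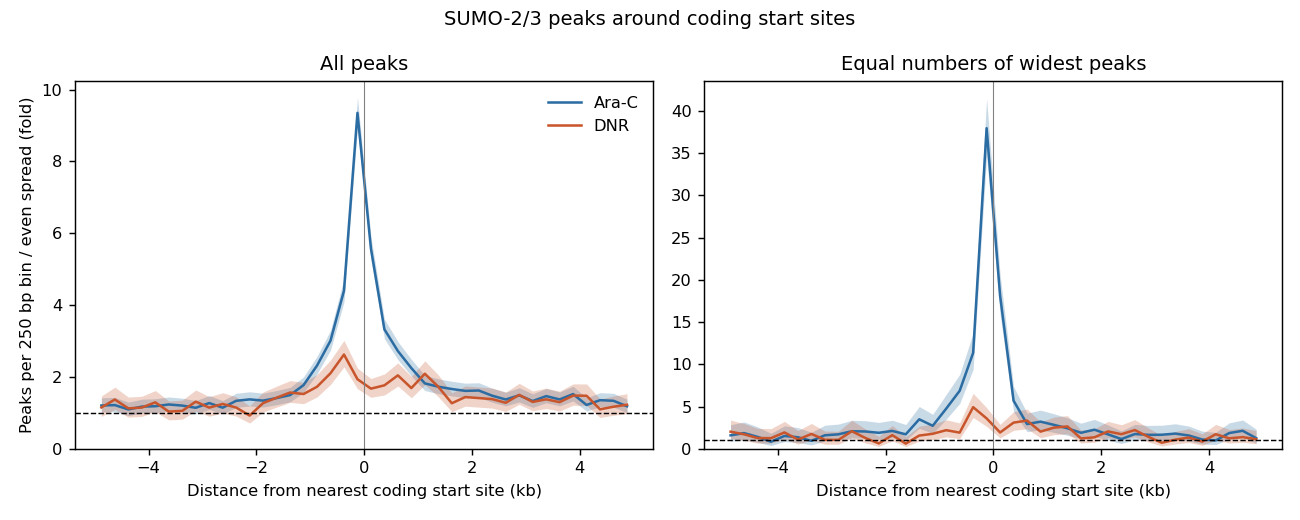
Peak midpoints per 250 bp bin, divided by an even spread over the genome (fold), against the signed distance from the nearest coding TSS in kb (negative is upstream). Ara-C and DNR are single libraries, shading gives 95% Wilson intervals, and the panels show all peaks (left) and the 4213 widest of each list (right) on separate scales. The Ara-C summit just upstream of the TSS reaches 9.35 and 37.9, and the DNR line stays below 5 in both panels.

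Over all peaks the lists had nearly the same base composition, and among the widest they did not. The genome had a GC content of 40.9%. The mean over Ara-C peaks was 45.8% (SD 9.91 over peaks) and over DNR peaks 45.6% (SD 9.56), and the difference of -0.17 points, DNR minus Ara-C, had a standard error of 0.064 over peaks. The sign of this small difference turned when the start-site window was left out, where DNR peaks were higher by 0.604 points (SE 0.063). In the window Ara-C peaks had 57.7% GC and DNR peaks 54.6%, a difference of -3.16 points (SE 0.293). Among equal numbers of widest peaks the means were 51.3% and 47.3%, a difference of -4.01 points (SE 0.215), and the difference was -1.62 points (SE 0.221) outside the window.

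Peaks of GC content of 60% or more made up 24.2% (22.9 to 25.5) of the widest Ara-C peaks and 11.7% (10.8 to 12.7) of the widest DNR peaks. Sequence of the same width 2 kb to either side served as a local reference. The widest Ara-C peaks exceeded it by 6.27 points and the widest DNR peaks by 2.22 points. Both references were near 45%, at 45.0% and 45.1%, so the difference lay in the peaks themselves. CG dinucleotides stood at 0.672 of the number that the base composition gives in Ara-C start-site peaks and at 0.504 in DNR start-site peaks. Outside the window the values were 0.240 and 0.243.

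**Figure D3:**
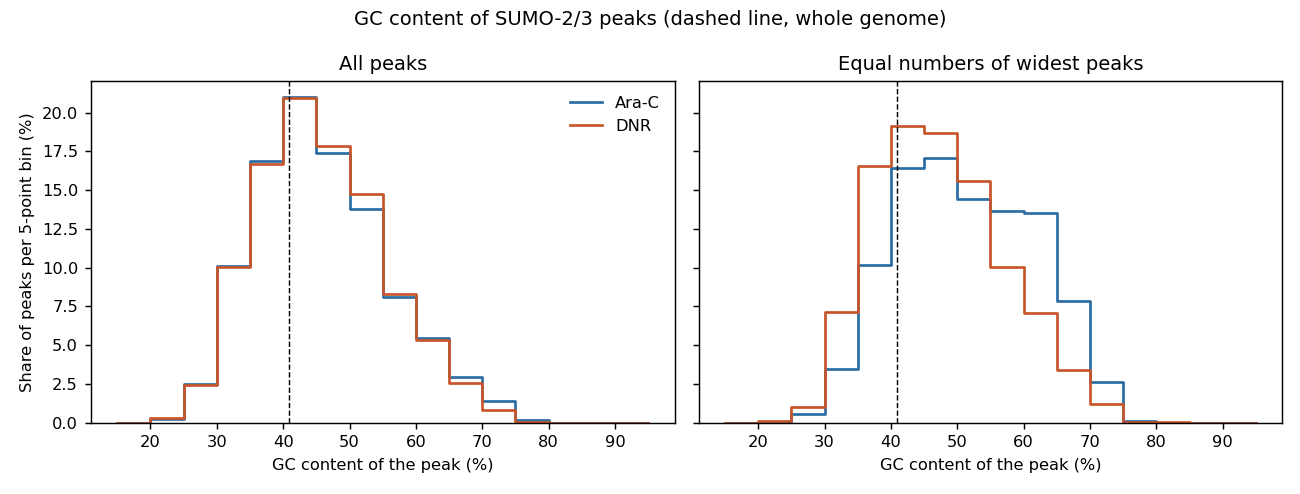
Share of peaks (%) by GC content of the peak in bins of 5 points, for Ara-C and DNR (1 library each), with all peaks on the left and the 4213 widest peaks of each list on the right. The dashed line marks the whole genome at 40.9%. The lines nearly coincide for all peaks, and on the right Ara-C has more peaks from 55% GC upwards.

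The sequence content of the peaks differed between the lists. The CTCF core motif and several promoter elements were more frequent in Ara-C peaks, and simple tandem repeats were more frequent in DNR peaks. Motifs were searched on both strands, and a match is a description of the letters, not a bound site. The ETS core, CCGGAAG, the binding element of a large family of factors active at housekeeping promoters, was in 1.62% of Ara-C peaks and in 0.735% of DNR peaks. It was in 0.576% and 0.556% of the flanking windows. Among the widest peaks the shares were 7.64% (6.88 to 8.48) and 1.33% (1.03 to 1.72). The GC box, GGGCGG, bound by SP and KLF factors, was in 6.24% of Ara-C peaks against 3.89% of their flanks. In DNR peaks it was at 3.81% against 4.04%, so it was no more frequent in the peak than beside it. The PU.1 site, GAGGAAGT, recognised by the myeloid factor PU.1, was in 1.79% of Ara-C peaks and in 1.01% of DNR peaks, with flanks at 0.958% and 0.877%. The cAMP response element TGACGTCA was in 0.205% and 0.0929%, with flanks at 0.0802% and 0.0690%.

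The core motif of CTCF, a factor that anchors chromatin loops, was in 1.56% (1.47 to 1.65) of Ara-C peaks and in 0.555% (0.480 to 0.640) of DNR peaks. The ratio of 2.81 (2.41 to 3.29) was 2.89 (2.46 to 3.40) outside the start-site window and 3.48 (2.66 to 4.55) among the widest peaks. Flanking windows held it in 0.0457% and 0.0705%.

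Other elements differed less over all peaks. The NRF1 element GCGCATG was in 0.657% of Ara-C peaks and in 0.642% of DNR peaks. The E-box CACGTG was in 2.82% and 3.00%, the AP-1 site TGANTCA in 6.87% and 6%, and CCAAT in 25.6% and 24.8%. Within subsets some of them did differ. The AP-1 site was in 13.1% (12.1 to 14.1) of the widest Ara-C peaks and 7.76% (6.99 to 8.61) of the widest DNR peaks, a ratio of 1.69 (1.48 to 1.92). In the start-site window the NRF1 element was in 2.20% and 0.862% of all peaks, a ratio of 2.55 (1.48 to 4.39), and the E-box in 6.48% and 4.19%, a ratio of 1.55 (1.21 to 1.99). Outside the window both of these ratios were below 1, at 0.790 (0.663 to 0.941) and 0.831 (0.767 to 0.900). The telomere repeat TTAGGGTTA was in 0.0968% and 0.0959%.

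The B box, searched as GGTTCGANNCC, was in 154 Ara-C peaks, or 0.213% (0.182 to 0.249), and in 38 DNR peaks, or 0.114% (0.0830 to 0.156). Flanking windows had it in 0.0533% and 0.0405%. It was concentrated in wide peaks, with 2.57% (1.94 to 3.39) of Ara-C peaks and just 0.789% (0.337 to 1.83) of DNR peaks of 400 bp or more. The B box was added to the search, as were the repeats in the next paragraph, after the printed sequences had been seen.

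A tandem repeat was counted where the central 150 bp of a peak matched itself in at least 70% of bases at some shift from 2 to 75 bp. This was so for 267 Ara-C peaks, or 0.369% (0.328 to 0.416), which was below the 0.596% of windows 2 kb away. It was so for 519 DNR peaks, or 1.56% (1.43 to 1.69), above their flanks at 1.07%. The share rose with the width of DNR peaks from 0.730% (0.618 to 0.862) at 150 bp to 15.9% (13.3 to 19) at 400 bp or more, where flanks had 4.57%. Ara-C peaks of 400 bp or more had 1.02% (0.652 to 1.58). The short run CACACACA was in 29.5% (26.1 to 33.2) of DNR peaks and 6.80% (5.75 to 8.04) of Ara-C peaks of 400 bp or more. Even inside the start-site window, 3.64% (1.99 to 6.56) of the widest DNR peaks were tandem repeats, against 0 of 1060 Ara-C peaks, whose interval reached 0.361%. Reads in tandem repeats can be hard to place, and the part of read placement in these shares was not tested.

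DNR peaks were also more frequent near chromosome ends, which are rich in GC and in tandem repeats. The terminal 5 Mb held 12.2% of DNR peaks (11.9 to 12.6) and 8.52% of Ara-C peaks (8.31 to 8.72), a ratio of 1.43 (1.38 to 1.49). Among the widest peaks the shares were 18.1% (17 to 19.3) and 9.66% (8.80 to 10.6), a ratio of 1.88 (1.68 to 2.10). The ratio for the terminal 1 Mb was 1.68 (1.54 to 1.82) for all peaks. At 400 bp or more, 28.1% of DNR peaks and 9.27% of those after Ara-C were terminal. Tandem repeats made up 4.81% (4.20 to 5.51) of terminal DNR peaks and 1.10% (0.990 to 1.23) of other DNR peaks. The 3 widest DNR peaks lay 0.527, 1.21 and 0.392 Mb from an end, on chromosomes 22, 12 and 2. In all 3 the run CACACACA was present, and their centres matched themselves in 69.4%, 58.2% and 62.2% of bases. Over 22 autosomes the median density was 25.2 Ara-C peaks and 12.1 DNR peaks per Mb, and the ratio of Ara-C to DNR peak numbers ranged from 1.59 to 2.86.

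Few sites were shared. Of the DNR peaks, 1841 shared at least 1 bp with an Ara-C peak, or 5.52% (5.28 to 5.77). In the other direction 1835 Ara-C peaks did, or 2.54% (2.43 to 2.66). With the peaks moved by 10 kb to either side, 2.28% and 1.06% overlapped, so sites coincided 2.42 and 2.40 times as often as their neighbourhood gives. The shared pairs had a median of 150 bp in common, and 61.7% of 1859 pairs had 150 bp or more in common. Between equal numbers of widest peaks the shares were 5.25% (4.61 to 5.96) of the DNR list and 5.03% (4.41 to 5.73) of the Ara-C list, where each list was set against 4213 peaks of the other.

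Wide peaks were shared more often than narrow ones. After DNR the share went from 3.12% (2.88 to 3.38) at 150 bp to 32% (28.5 to 35.7) at 400 bp or more. The moved peaks went from 1.5% to 12.1% as well, and the excess over the neighbourhood went from 2.07-fold to 2.64-fold. After Ara-C the share went from 1.31% to 15.3% (13.7 to 17), and the excess from 1.83-fold to 3.33-fold.

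**Figure D4:**
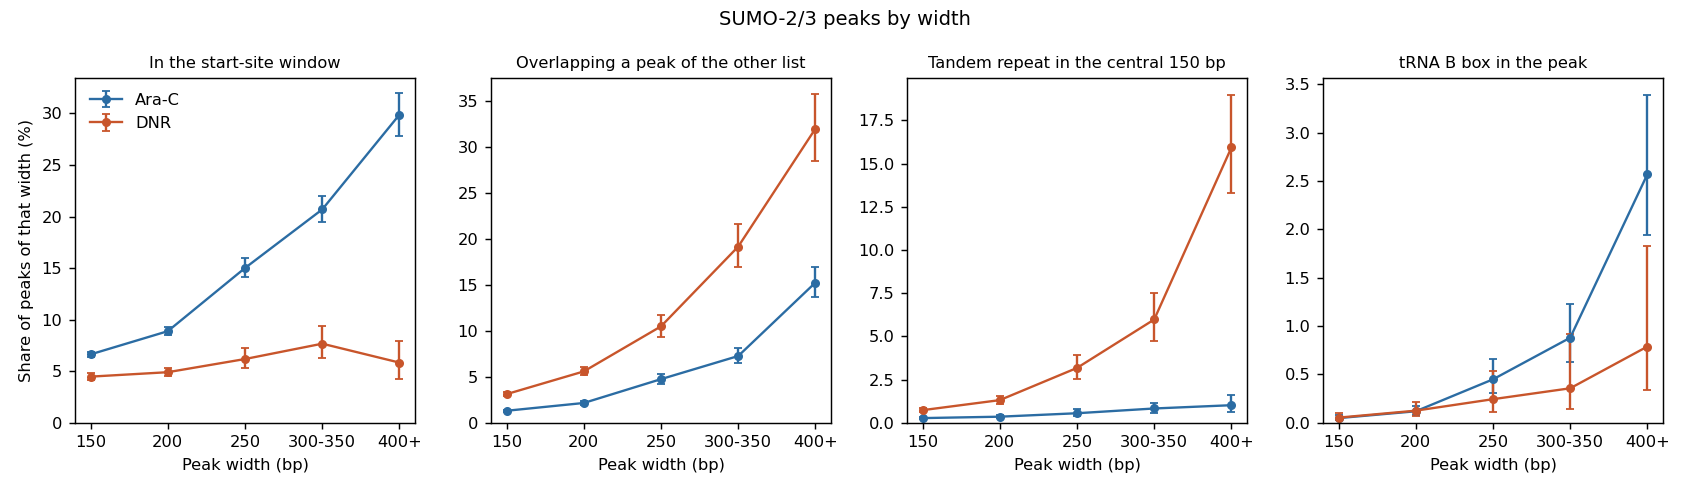
Share of peaks (%) of each width class, from 150 bp to 400 bp and more, that lay in the start-site window, overlapped a peak of the other list, had a tandem repeat in the central 150 bp, or held a B box, for Ara-C and DNR (1 library each). Points are shares and error bars are 95% Wilson intervals, and each panel has its own scale from 0. With width, the start-site and B box shares rise to 29.9% and 2.57% for Ara-C, and the tandem repeat share rises to 15.9% for DNR.

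Sharing differed with where the DNR peak was. In the start-site window 245 of 1624 DNR peaks were shared, or 15.1% (13.4 to 16.9), which was 8.91 times the moved peaks. Within 250 bp of a TSS 86 of 334 were, or 25.7% (21.4 to 30.7), an 11.5-fold excess. A move by 10 kb takes a peak out of the window of that TSS, where Ara-C peaks were 3.45-fold over an even spread. Both excesses therefore hold this density as well as shared sites, and the parts were not separated. Introns gave 3.57% (3.27 to 3.90) and intergenic sequence 5.47% (5.08 to 5.89). DNR peaks of GC content of 60% or more were shared in 12.2% of cases (11.1 to 13.5), and those under 40% in 3.76% (3.40 to 4.15). On the Ara-C side 247 of 6787 window peaks were shared, or 3.64% (3.22 to 4.11), 4.33 times the moved peaks, with the same limit. The numbers of shared window peaks were nearly equal, so the gap between these shares follows from the numbers of window peaks in the lists.

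A stretch of 10 Mb on chromosome 8 was dense in both lists, with 1165 Ara-C and 964 DNR peaks. HL-60 cells are known to carry extra copies of the MYC region, which lies there. In it 29.1% of DNR peaks were shared against 25.9% when moved, so sharing hardly exceeded the density. Elsewhere 4.82% of DNR peaks were shared against 1.58%, a 3.05-fold excess. In non-coding genes the share of DNR peaks went from 7.48% to 3.87% without this stretch, and in the start-site window it went from 15.1% to 14.8%.

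Shared peaks were richer in GC and in CTCF and B box motifs than peaks of a single drug, in both lists. Their mean GC content was 49.6% on the Ara-C side and 49.5% on the DNR side, against 45.7% and 45.4% for peaks of a single drug. The start-site window held 13.5% and 13.3% of shared peaks, 9.28% of peaks called after Ara-C only and 4.38% of those called after DNR only. The CTCF core was in 7.25% of shared Ara-C peaks and 6.19% of shared DNR peaks. It was in 1.41% of peaks of Ara-C only and 0.225% of peaks of DNR only. The B box was in 1.8% (1.28 to 2.51) of shared Ara-C peaks and 1.36% (0.921 to 2.00) of shared DNR peaks, and in 0.172% and 0.0413% of single ones. Of the 38 DNR peaks with a B box, 25 were shared. Tandem repeats were also more frequent among shared peaks, at 4.36% and 4.40% against 0.265% and 1.39%, and their flanks had 3.24% and 3.59%. Shared peaks were wider, with a median of 200 bp against 150 bp in each list, which gives a motif more room.

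Genes were then counted by whether any peak reached the window of any of their coding start sites. Of 19812 coding genes, 6111 had such a peak after Ara-C, or 30.8%, and 1668 after DNR, or 8.42%. Both drugs marked 783 genes, or 3.95%, Ara-C only marked 5328, or 26.9%, and DNR only marked 885, or 4.47%. Of the DNR genes, 46.9% (44.6 to 49.3) also had an Ara-C peak, against the 30.8% of all coding genes. Of the Ara-C genes, 12.8% (12 to 13.7) also had a DNR peak, against 8.42% of all. Sharing a gene did not mean sharing a site. In 270 of the 783 genes, or 34.5%, the window peaks of the drugs had bases in common.

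With equal numbers of widest peaks, 1215 genes (6.13%) had an Ara-C peak and 314 (1.58%) a DNR peak. Both drugs marked 74 genes (0.374%), Ara-C only 1141 (5.76%) and DNR only 240 (1.21%). The Ara-C list still reached 3.87 times as many genes as the DNR list of the same length, close to the 3.66 times of the full lists. Of the DNR genes, 23.6% (19.2 to 28.6) were then also Ara-C genes. Genes marked by both drugs had wider Ara-C peaks than genes of Ara-C only. Their widest window peak was at least 300 bp in 35.6% and 23.7% of genes. On the DNR side it was so in 12.4% of genes of both drugs and 5.42% of genes of DNR only.

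The 10 genes with wide peaks in both lists were ranked by the narrower of their widest window peaks. NDUFS7, a subunit of respiratory complex I on chromosome 19, had an 850 bp peak after Ara-C, from 1383101 to 1383950, and a 700 bp peak after DNR, from 1383301 to 1384000. TSPOAP1, next to the myeloperoxidase gene on chromosome 17, had the widest Ara-C peak of all, 4050 bp from 56405551 to 56409600, and a DNR peak of 500 bp inside it. PLXDC1 had the same 450 bp peak in both lists, chr17:37310551-37311000. At UBE2L3, which encodes a ubiquitin-conjugating enzyme, the DNR peak of 350 bp lay within the Ara-C peak of 600 bp.

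At PDE4A, TLCD1 and TRIB1 the widest peaks of the drugs also had bases in common, and at LRIF1, EARS2 and SLC16A3 they lay apart, although in each of these genes some window peaks of the drugs shared bases. At EARS2 the only DNR window peak overlapped the narrower of its 2 Ara-C peaks. At PDE4A, a cAMP phosphodiesterase, the midpoint of the Ara-C peak was 24 bp upstream of a TSS, and that of the DNR peak was 451 bp downstream of the nearest one. At LRIF1 the Ara-C peak of 650 bp was centred 138 bp upstream and the DNR peak of 350 bp 719 bp downstream. At EARS2, a mitochondrial tRNA synthetase that shares its promoter with UBFD1, the centres were 129 bp upstream and 290 bp downstream. At TLCD1 they were 451 and 826 bp downstream. SLC16A3, a lactate transporter, had 6 Ara-C and 3 DNR peaks. Its widest DNR peak was a tandem repeat with a self-match of 76.6%. TRIB1, a pseudokinase gene in the dense stretch of chromosome 8, had 5 Ara-C and 4 DNR peaks, and its widest DNR peak of 350 bp lay inside the Ara-C peak of 1000 bp. Of the 10 Ara-C peaks, 5 were centred within 250 bp of a TSS, and of the 10 DNR peaks, 2 were. The ETS core was in 4 and 0 of them. In these same genes the median GC content was 62.4% in the Ara-C peaks and 53.6% in the DNR peaks.

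The 10 genes of Ara-C only were ranked by their widest window peak. SMIM47 on chromosome 19 had a peak of 1400 bp, from 51297601 to 51299000. CFAP298 had a peak of 1000 bp across its TSS, from 33984401 to 33985400 on chromosome 21. HMGN4, a nucleosome-binding protein gene on chromosome 6, had 1000 bp, from 26537451 to 26538450, and this peak held a B box. CIC, a transcriptional repressor, had 900 bp, and PISD, the mitochondrial phosphatidylserine decarboxylase, had 850 bp. The promoter shared by PRR11 and SKA2 and that of UTP3, a ribosome biogenesis factor, had 800 bp each. TOB2, an antiproliferative protein gene on chromosome 22, had 750 bp. MPO, the myeloperoxidase of neutrophil granules, had 750 bp, from 56357901 to 56358650 on chromosome 17. Of the 10 peaks, 8 held a GC box, 4 held the ETS core and 0 were in the terminal 5 Mb.

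The 10 genes of DNR only were ranked in the same way. UBE2QL1 had a peak of 1000 bp, from 6447301 to 6448300 on chromosome 5, and MMEL1, a membrane metalloendopeptidase, had 850 bp, from 2561751 to 2562600 on chromosome 1. PAM16, part of the mitochondrial import motor, had 550 bp whose centre matched itself in 94.9% of bases. CALY had 500 bp, 0.384 Mb from the end of chromosome 10. GRK1, the rhodopsin kinase, had 450 bp, 0.849 Mb from the end of chromosome 13, with a self-match of 95.7%. ACTL8, CYP4F12, EMID1, HSPA12A and TNFRSF11A had 450 bp each. Of the 10 peaks, 4 lay in the terminal 5 Mb, 4 held the run CACACACA, 0 held the ETS core, and 1, at ACTL8, was centred within 250 bp of a TSS. Their median GC content was 53.7%, against 59.9% for the genes of Ara-C only.

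Gene groups differed in how often their start sites were marked, and each count is read against the 30.8% of coding genes with an Ara-C peak and the 8.42% with a DNR peak. Whether the peaks of the drugs share bases is read against the 34.5% of all genes of both drugs in which they do. Neighbouring histone genes share windows, so members of that group are not independent. Of 64 replication-dependent histone genes, which package newly made DNA, 38 had an Ara-C peak (59.4%), 6 a DNR peak (9.38%) and 4 both. H2AC6 and H2BC4, which face each other on chromosome 6, had an Ara-C peak of 250 bp and a DNR peak of 300 bp that overlapped. H4C8 had an Ara-C peak of 600 bp and a DNR peak of 200 bp. The genes H3C8 and H2BC10 shared a DNR peak of 150 bp and had no Ara-C peak. H2BC11 and H2AC11 shared an Ara-C peak of 600 bp and had no DNR peak.

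Genes of protein synthesis had an Ara-C peak more often than coding genes at large. Their DNR share lay below the 8.42% of all coding genes in each list, but each list alone had too few DNR peaks to set it apart. Of 81 cytoplasmic ribosomal protein genes, 43 had an Ara-C peak (53.1%), 4 a DNR peak (4.94%) and 3 both. These were RPL11, RPS7, whose Ara-C peak was 650 bp and whose DNR peak was 150 bp, and RPL10A. RPL28 had a DNR peak alone, and RPL3 and RPL32 had Ara-C peaks of 500 bp alone. Of 78 mitochondrial ribosomal protein genes, 42 had an Ara-C peak (53.8%), 2 a DNR peak (2.56%) and 1, MRPS25, both. Of 69 genes with symbols of translation initiation and elongation factors, 33 had an Ara-C peak (47.8%) and 3 a DNR peak (4.35%). This list, called translation factor genes in the plot of gene groups, was set by symbol and also holds genes that are not translation factors, such as the lysine methyltransferase gene EEF1AKMT2 and the kinase gene EIF2AK3. EIF4E2 and EEF1AKMT2 had peaks of both drugs, and at EIF4E2 the Ara-C peak was 700 bp and the DNR peak 200 bp. In the equal-number lists 16 of the 81 cytoplasmic ribosomal protein genes had an Ara-C peak (19.8%), against 6.13% of all coding genes. There 0 had a DNR peak, against 1.58% of all coding genes.

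**Figure D5:**
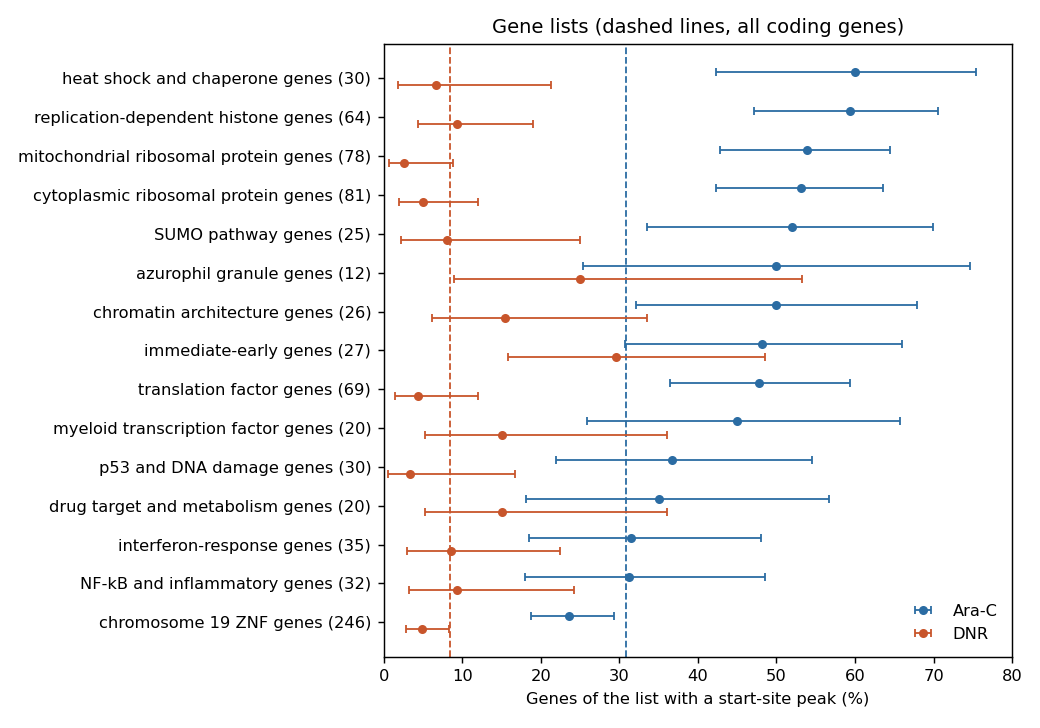
Share of the genes of each list (%) with a start-site peak after Ara-C or DNR (1 library each, all peaks), with the number of genes of the list in brackets. Points are shares, bars are 95% Wilson intervals, and the dashed lines give all coding genes at 30.8% for Ara-C and 8.42% for DNR. Ribosomal protein, histone and chaperone genes lie to the right of the Ara-C line, and for DNR the immediate-early genes stand at 29.6%.

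Immediate-early genes, which are switched on within minutes of a stimulus, were the list with the highest DNR share of the 15 examined. Of 27, 13 had an Ara-C peak (48.1%), 8 a DNR peak (29.6%) and 6 both. DUSP1, a phosphatase of MAP kinases, had the same 200 bp peak in both lists, chr5:172199451-172199650. NR4A1, an orphan nuclear receptor, had 4 Ara-C peaks and 1 DNR peak that shared bases with them. EGR2, KLF4, ATF3 and JUNB had peaks of both drugs at different places in the window. FOSL1 and EGR3 had DNR peaks of 150 and 200 bp and no Ara-C peak. JUN had 3 Ara-C peaks, the widest of 700 bp, and no DNR peak. EGR1, FOSB and IER3, named in advance with NFKB2, ICAM1 and CXCL10, had Ara-C peaks of 300, 150 and 300 bp and no DNR peak in their windows.

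Of 32 NF-kB and inflammatory genes, 10 had an Ara-C peak (31.25%), 3 a DNR peak (9.38%) and 3 both, close to the 30.8% and 8.42% of all coding genes. These were TRAF1, TNFAIP3 and NFKB2, and in none of them did the peaks of the drugs share bases. Over all 783 genes of both drugs they did in 34.5%, and 3 genes are too few to set apart from this. At NFKB2 the widest Ara-C window peak was 250 bp, centred 58 bp downstream of a TSS, and the DNR peak was 150 bp, centred 365 bp downstream of one. ICAM1, a leukocyte adhesion molecule, had 2 Ara-C peaks and no DNR peak, and CXCL10 had neither. Of 35 interferon-response genes, 11 had an Ara-C peak (31.4%) and 3 a DNR peak (8.57%), also close to all coding genes. IRF9, a subunit of the interferon-activated complex ISGF3, had overlapping peaks, and OAS1 and IFIT3 had DNR peaks alone. Of 30 p53 and DNA damage genes, 11 had an Ara-C peak (36.7%) and 1, ATF3, a DNR peak as well (3.33%). CDKN1A, the p53-induced cell cycle inhibitor, had an Ara-C peak of 400 bp alone.

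Of 25 SUMO pathway genes, 13 had an Ara-C peak (52%) and 2 a DNR peak (8%), against 30.8% and 8.42% of all coding genes. SAE1 had a DNR peak alone, and the proteases USPL1 and SENP1 had Ara-C peaks of 750 and 450 bp alone. Of 12 azurophil granule genes, 6 had an Ara-C peak (50%) and 3 a DNR peak (25%). CTSG had overlapping peaks of 200 and 150 bp, and ELANE and CD63 had DNR peaks alone. Of 20 myeloid transcription factor genes, 9 had an Ara-C peak (45%) and 3 a DNR peak (15%). KLF4 had both, RARA and FLI1 had DNR peaks alone, and RUNX1 had 3 Ara-C peaks alone, the widest of 450 bp. Of 20 genes of drug targets and metabolism, 7 had an Ara-C peak (35%) and 3 of these a DNR peak as well (15%). These 3 were TOP2A, a target of DNR, SLC29A1, the transporter that takes up Ara-C, and ABCG2, an efflux pump. In none of them did the peaks share bases, against 34.5% of all 783 genes of both drugs, and 3 genes are too few to set apart from this.

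Of 30 heat shock and chaperone genes, 18 had an Ara-C peak (60%) and 2 of these a DNR peak as well (6.67%). At DNAJB6 peaks of 200 bp in both lists overlapped, and at HSPD1 peaks of 500 and 150 bp did not. Of 26 chromatin architecture genes, 13 had an Ara-C peak (50%) and 4 a DNR peak (15.4%). ARID1A and HDAC3 had both, STAG2 and KAT2A had DNR peaks alone, and the cohesin gene SMC3 had an Ara-C peak of 550 bp alone. Zinc finger genes of chromosome 19 were below the share of all genes for both drugs. Of 246, 58 had an Ara-C peak (23.6%), 12 a DNR peak (4.88%) and 7 both. At 1 of these 7, ZNF134, the peaks shared bases, against 34.5% of all 783 genes of both drugs, and 7 genes are too few to set apart from this.

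The widest overlaps lay away from coding start sites. The first, of 1650 bp, was chr6:58777401-58779050, and the second, of 850 bp, was chr7:61968801-61969650, each over 1 Mb from the nearest coding TSS. Both lie in the region of a centromere. The third, of 750 bp, was chr14:21100951-21101700, intergenic, with the same borders in both lists and 8525 bp from a TSS of OR6S1. Of the 3 widest Ara-C peaks, those at TSPOAP1 and on chromosome 6 overlapped DNR peaks by 500 and 2150 bp. The third, of 1900 bp in an intron of RCC1 on chromosome 1, from 28836201 to 28838100, overlapped none. The widest DNR peaks, of 3150, 2700 and 1900 bp, overlapped Ara-C peaks by 350, 500 and 0 bp.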

How the data were processed

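Per the labels and the study's methods, the authors sequenced single-end reads, aligned them to hg19 with CASAVA 1.8.2, extended them to 210 bp (Ara-C) or 220 bp (DNR), scaled the libraries, subtracted the input in bins of 50 bp and called runs above a signal value of 32. The deposited values are peak positions, with no height, count or p-value. The mock list and the 3 inputs were not used here.

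Starts were read as 1-based. Genes came from GENCODE 44 lifted to GRCh37, with 55751 coding start sites in 19812 genes. Mitochondrial peaks, 2 after Ara-C and 1 after DNR, were left out. The midpoint of a peak gave its region, taken in the order start-site window, coding exon, UTR, intron, non-coding gene and intergenic. Overlap meant at least 1 shared bp, and bedtools 2.31.1 gave 0 differences. Shares carry Wilson intervals, ratios log-scale intervals. Steps were checked on simulated data. Software was Python 3.11.15, numpy 2.4.6, pandas 2.3.3 and scipy 1.17.1.

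The comparison, gene lists and alternatives were chosen with earlier results of these data known. Named genes were the 10 with the widest window peaks of each kind, 6 set by name, and list members with peaks of both drugs. Members of lists with a DNR peak alone, or with a wide Ara-C peak alone, were named after their values were seen.
The B box, the repeat measures and the overlap by region without the dense stretch of chromosome 8 were chosen after seeing the data. Some named genes are not reported here.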

Additional observations from a re-analysis of the deposited data

How the results depend on the processing

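No paired analysis was possible because each drug has 1 library and no test was made. Depth, peak height and the spread between cultures are unknown from the lists, and the cause of the shifts below was not tested unless a setting removes peaks by construction. Of 88 values under alternative settings, 30 stayed within the counting interval or, for gene numbers, within a factor of 1.5, and 57 moved without a change of direction and 1 reversed. The reversal was the GC difference, DNR minus Ara-C, which was 0.604 points outside the start-site window. In this paragraph and the next, values follow the order: DNR peaks overlapping Ara-C peaks, Ara-C peaks overlapping DNR peaks, start-site ratio and ratio within 250 bp (Ara-C over DNR), GC difference, genes of Ara-C only, DNR only and both, and terminal ratio (DNR over Ara-C).

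Peaks of at least 200 bp gave 6.63%, 2.74%, 2.29, 5.34 and -0.88 points, 506 genes of DNR only, 341 of both and 1.57. Equal numbers of widest peaks gave 5.25%, 5.03%, 3.85, 10.1, -4.01 points, 1141, 240 and 74 genes and 1.88. Another tie-breaking gave 5.15% of Ara-C peaks, 3.83, 10.2, -4.05 points, 1143, 245 and 69 genes and 1.93. The 1000 widest peaks gave 5.80%, 5.70%, 4.65, 13.2, -4.55 points, 369, 72 and 10 genes and 2.65. The Ara-C list cut to the size of the DNR list gave 3.95%, 3.91%, 2.56, 6.10, -1.54 points and 1.37.

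Coverage of at least 50% of the peak gave overlaps of 4.01% and 1.74%, and peaks within 500 bp gave 11.7% and 5.58%. Without the dense stretch of chromosome 8 the overlaps were 4.82% and 2.19%. Without the terminal 5 Mb, 2.38% of Ara-C peaks overlapped and the GC difference was -0.62 points. A window of 1 kb to either side gave a start-site ratio of 2.23, and the 5′ end of each gene gave 2.06. Start sites of all annotated genes gave ratios of 1.47 and 2.56 and 9874, 2325 and 1375 genes. A window ending at the start site gave 507 genes of both, and the terminal 1 Mb gave a ratio of 1.68.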
